A study of Mus musculus with 18 samples.

Results

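The tumor suppressor p53 switches on a set of genes that halt the cell cycle and restrain p53 itself, and 10 of them were followed here: Cdkn1a, Mdm2, Ccng1, Btg2, Trp53inp1, Sesn1, Sesn2, Zmat3, Ppm1d and Gadd45a. Their probes were found on the array by the transcript accession of each spot, which RefSeq pairs with the gene. The 10 genes had 11 of the 37246 probes on the array, 2 for Cdkn1a and 1 for each of the others. Signals of these probes were compared in 6 groups of 3 samples of wild-type murine cells, each sample hybridized to 1 Agilent one-color array. ES cells are embryonic stem cells derived from blastocysts and were kept without feeder cells in medium with leukemia inhibitory factor (LIF). ED cells are isogenic cells that differentiated without direction once LIF (and, by the methods, beta-mercaptoethanol) was withdrawn, for at least 4 days by the methods or a week or longer by the labels. ESRE and ESRL are ES cells collected 15 min and 4 h after 10 Gy of ionizing radiation (IR), EDRE and EDRL are ED cells collected at the same times after the same dose, and ES and ED received no IR. The labels call the samples triplicates without saying whether they came from separate cultures, so p-values measure the spread between these samples, which may be technical.

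After DNA breaks, ATM and related kinases phosphorylate p53 and its inhibitor Mdm2, p53 accumulates in the nucleus, and it binds paired decamer motifs near its target genes. Cdkn1a (p21) inhibits the cyclin-dependent kinases that drive entry into S phase, and Btg2, Gadd45a and Zmat3 also act against proliferation. Mdm2, which ubiquitinates p53, Ppm1d (Wip1), which dephosphorylates p53 and ATM, and Ccng1 (cyclin G1), which recruits the phosphatase PP2A to Mdm2, close a negative feedback loop. Trp53inp1 is a nuclear cofactor of p53, and Sesn1 and Sesn2 are sestrins that restrain mTORC1 signaling. Mouse ES cells are known for a short G1 phase and for lacking a lasting G1 arrest after irradiation.

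The sequence before the start of transcription shows which of these genes carry a p53 motif next to their start. RefSeq promoter windows of 300 bases (250 before the start and 50 after it, GRCm38.p6) were held for 8 of the 10 genes. Trp53inp1 and Zmat3 had no window, so the search says nothing about them. There were 10 windows in all, since Cdkn1a and Sesn1 have 2 starts each. Each window was searched for the p53 decamer, which consists of purines, then C, then A or T, then G, then pyrimidines, and reads alike on both strands. It was present in 6 of the 10 windows, belonging to 6 genes, against 8.36% of all 32851 windows. The windows of Btg2, Sesn2, the downstream start of Cdkn1a and the upstream start of Sesn1 held none. The next 4 sequences are the 250 bases before the start. Cdkn1a is shown because it has the longest-known p53 promoter site, and Ccng1 and Mdm2 because they were higher 4 h after IR in ED cells. Btg2 is shown because it was higher without an exact decamer in its window. The sequences run 5′ to 3′ on the strand of the gene, and capitals mark exact p53 decamers.
Cdkn1a, chr17:29090729-29090978, plus strand: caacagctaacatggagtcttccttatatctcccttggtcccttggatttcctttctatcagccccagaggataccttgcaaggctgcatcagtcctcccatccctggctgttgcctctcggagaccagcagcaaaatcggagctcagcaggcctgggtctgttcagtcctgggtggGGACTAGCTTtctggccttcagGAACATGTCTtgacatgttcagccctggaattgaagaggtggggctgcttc
Ccng1, chr11:40755287-40755536, minus strand: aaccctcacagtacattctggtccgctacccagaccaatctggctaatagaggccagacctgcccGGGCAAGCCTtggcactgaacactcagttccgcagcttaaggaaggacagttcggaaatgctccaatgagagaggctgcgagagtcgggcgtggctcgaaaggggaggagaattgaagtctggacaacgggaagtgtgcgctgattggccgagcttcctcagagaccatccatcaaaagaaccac
Mdm2, chr10:117710759-117711008, minus strand: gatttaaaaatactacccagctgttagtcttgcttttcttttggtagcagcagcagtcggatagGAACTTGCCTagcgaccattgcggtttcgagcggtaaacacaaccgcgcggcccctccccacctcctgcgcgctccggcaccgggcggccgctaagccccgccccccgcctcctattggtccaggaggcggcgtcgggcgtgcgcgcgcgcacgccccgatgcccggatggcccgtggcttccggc
Btg2, chr1:134079156-134079405, minus strand: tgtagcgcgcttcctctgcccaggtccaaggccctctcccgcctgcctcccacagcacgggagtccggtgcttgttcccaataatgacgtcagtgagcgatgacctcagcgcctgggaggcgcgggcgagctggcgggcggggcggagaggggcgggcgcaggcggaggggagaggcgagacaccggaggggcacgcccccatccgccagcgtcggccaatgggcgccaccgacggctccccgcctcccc

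The upstream start of Cdkn1a had a pair of decamers with no mismatch, which began 73 and 51 bases before the start and lay 12 bases apart. Such a pair, with at most 13 bases between its decamers, occurred in 0.0731% of all windows. Only the pair with the fewest mismatches was kept in each window. In the printed sequence, the 10 bases directly after the second decamer of Cdkn1a also form a pair with it, without a gap and with 1 mismatch. The decamer of Ccng1 began 185 bases before the start and formed a pair without a gap, with 1 mismatch, together with the 10 bases before it; 1.09% of all windows held a pair with at most 1 mismatch. Mdm2 had a single decamer 186 bases before its start, with 4 mismatches in the best pair. The p53 sites that Mdm2 is known for lie within an intron, outside this window. Btg2 had no exact decamer, and its best pair had 4 mismatches. In its printed sequence, gtgcttgttc matches the decamer with 1 mismatch. The share of windows with such a match was not counted. Stretches of 50 bases around the single decamers of the other 3 genes show them in the same manner.
Ppm1d, chr11:85311102-85311151, plus strand: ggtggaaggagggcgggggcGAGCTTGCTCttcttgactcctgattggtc
Gadd45a, chr6:67037418-67037467, minus strand: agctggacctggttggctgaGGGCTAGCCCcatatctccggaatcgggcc
Sesn1, downstream start, chr10:41887246-41887295, plus strand: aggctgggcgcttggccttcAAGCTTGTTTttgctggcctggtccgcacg

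Other promoter motifs were searched on both strands as a description. The box CCAAT was found in 8 of the 10 windows (37.4% of all windows), GGGCGG in 8 (35.7%) and TATAAA in 0 (13.6%). The upstream window of Cdkn1a differed from the others, with 2 CpG dinucleotides and neither CCAAT nor GGGCGG, whereas the other 9 windows held 14 to 35 CpG dinucleotides. The genes lie on chromosomes 1 (Btg2), 3 (Zmat3), 4 (Trp53inp1 and Sesn2), 6 (Gadd45a), 10 (Mdm2 and Sesn1), 11 (Ccng1 and Ppm1d) and 17 (Cdkn1a), and span between 2.31 kb (Gadd45a) and 97.9 kb (Sesn1).

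Values are given as the log2 signal over the 75th percentile of its array, where 0 is the brightness of that percentile and a difference of 1 is a doubling. A probe was well above background where the scanner software marked it so, and a spot was an outlier where the software marked it as uneven or off its population. The 75th percentile was between 2806 and 4268 on 15 arrays, 1952 on ESRL replicate 1, and 875 and 1155 on EDRE replicates 2 and 3. These EDRE arrays had outlier marks on 24.4% and 23.8% of their spots, against 3.30% to 11.1% on the other 16, and 49.5% and 55.5% of their probes passed the background mark, against 63.3% to 86.1%. Of 9 stem cell markers 8 were tested and 7 were lower in ED, such as Pou5f1 with a mean of 6.69 in ES and -3.59 in ED. Sox2, among the 7, was still at 2.32 in ED and well above background there, and Klf4 was not lower, at 3.84 in ES and 3.89 in ED. Zfp42 was well above background on 0 of the 9 arrays of ED cells. Of 7 mesenchymal markers 6 were higher in ED, with a mean of 6.88 for S100a4 against -3.31 in ES, while Thy1 was not well above background on any ED array. Of 4 blood and endothelial markers, Ptprc was not well above background in any group, Hba-a1 was well above it in every group and higher in ED (-3.82 in ES and -2.77 in ED), and Pecam1 and Cdh5 were lower in ED. Of 5 endoderm markers 3 were tested, and all 3 were lower in ED (Foxa2, Gata4 and Sox17). Of 4 neural markers, all tested, 0 were higher in ED and 1 was lower (Pax6). The part of these cell types in the results was not tested. In RNA of whole cultures, fewer cells of a type and less RNA per cell cannot be told apart.

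Outlier spots were left out of the tests, and this touched the 10 genes unevenly. On EDRE replicates 2 and 3, 6 of the 10 genes had an outlier spot, against 0 to 2 on the other arrays, so that Mdm2, Ccng1, Cdkn1a, Zmat3 and Sesn1 rest on 1 array in EDRE, which the fit assumes to vary like the arrays of the other groups. Gadd45a lost 9 of 18 spots, with all 3 in ES and in EDRE among them, and Sesn1 lost 12 of 18, with all 3 in EDRL among them. Where a group lost all its spots, the value given below is from the fit with outlier spots kept, which is named each time. All 10 genes were well above background on 18 arrays except Btg2, on 17, and Sesn2, on 15.

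Each comparison was tested with limma over all probes that were well above background on the 3 arrays of at least 1 group compared, and a gene was called where its Benjamini-Hochberg adjusted p was under 0.05 and its difference over 1 on the log2 scale. In EDRL against ED, 5 of the 9 genes tested were higher (Mdm2, Ccng1, Btg2, Trp53inp1 and Zmat3) and 0 lower, where 1.40% and 0.254% of all genes tested were called higher and lower. The median difference of the 9 was 1.32, against -0.09 over all probes tested, and all 9 values were above 0. In EDRE against ED, 2 of 9 were higher (Btg2 and Trp53inp1) and 0 lower (2.23% and 2.97% of all genes), with a median of 0.53 against 0.03. In ESRL against ES, 1 of 9 was higher (Trp53inp1) and 0 lower (0.691% and 6.90% of all genes), with a median of 0.11 against -0.16. In ESRE against ES, limma called 0 of 9 higher and 0 lower (0.290% and 0.173% of all genes), 1 gene and 9.45% of all probes had an unadjusted p under 0.05, and the methods' t-test also called 0. The median was -0.15 against -0.08.

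Before IR, 3 of the 10 genes were lower in ED than in ES cells, a count near the share of all genes. In ED against ES, 0 of 9 genes were higher and 3 lower (Btg2, Trp53inp1 and Mdm2), where 14.9% and 26.7% of all genes tested were called higher and lower. The median was -0.72 against -0.19 over all probes. This comparison shares the ED arrays with those of EDRE and EDRL and the ES arrays with those of ESRE and ESRL, so a low ED value enters it and the changes after IR with opposite signs. When arrays were scaled by their medians instead (median scaling), the median of all probes moved up by 0.64 in this comparison, and 1 gene was higher (Cdkn1a) and 2 lower. With quantile normalization 1 was higher and 3 lower.

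**Figure D1:**
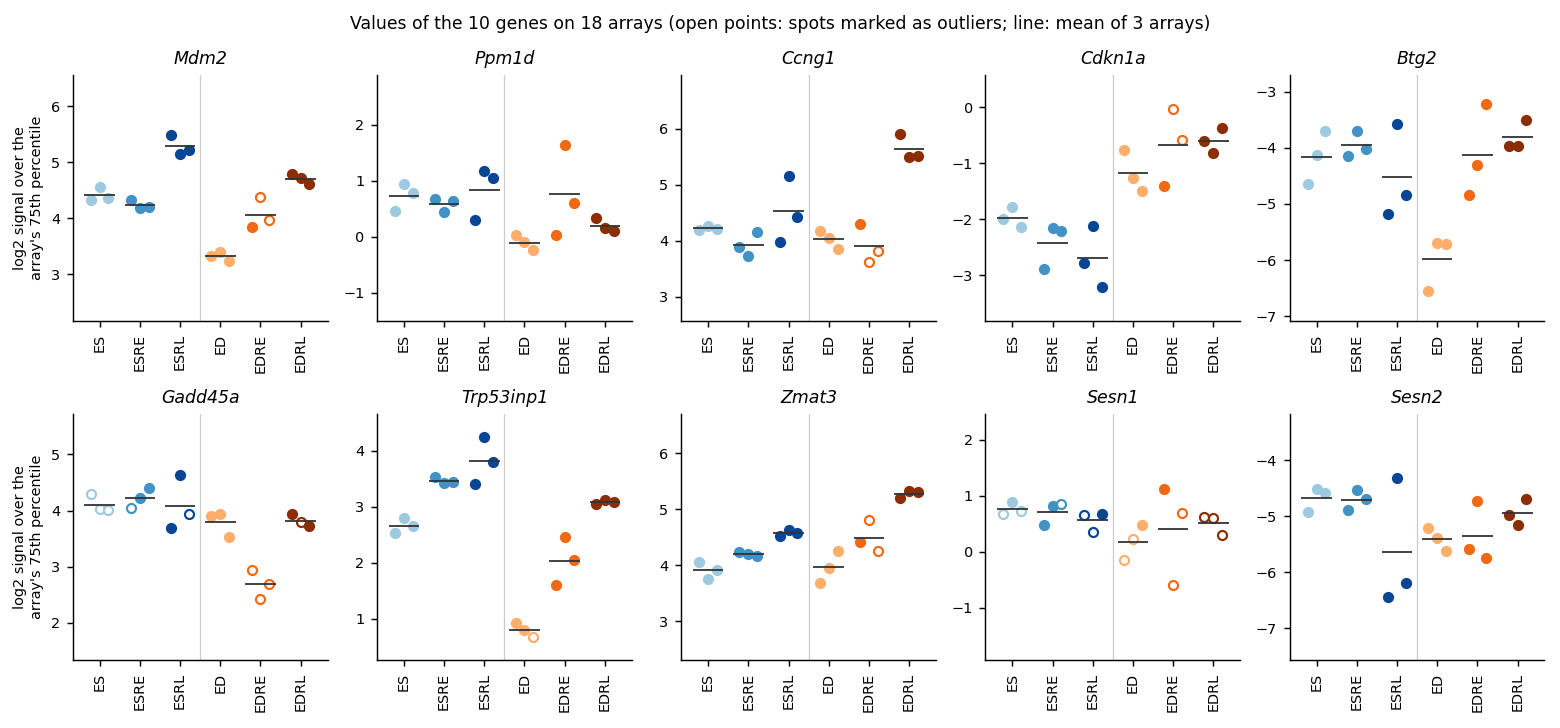
Log2 signal over the 75th percentile of the array for the 10 genes (the brighter probe of Cdkn1a), with 1 point per array, 3 arrays in each of 6 groups, and a line at the mean of all 3 spots. Open points are outlier spots; every axis spans the same range. In EDRL the 3 points of Mdm2, Ccng1, Btg2, Trp53inp1 and Zmat3 lie above all 3 of ED, as do those of Ppm1d and Sesn2, which were not called. The share of all probes that separate in this way was not counted.

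Among the feedback regulators, Mdm2, the ubiquitin ligase of p53, was called after IR in EDRL. It measured 3.33, 3.39 and 3.24 in ED, 4.79, 4.72 and 4.61 in EDRL, and 4.32, 4.56 and 4.37 in ES. The 3 groups did not overlap, and ES cells before IR lay between ED cells before and 4 h after it. Mdm2 rose by 1.39 in EDRL (standard error 0.14, 2.61-fold, adjusted p = 1.09e-04). In ESRL it measured 5.49, 5.15 and 5.21, also above every ES array, and the difference of 0.87 (standard error 0.14) had an adjusted p of 0.00387 but was under the limit of 1. With median scaling, which moved the median of all probes up by 0.31 in this comparison, it was 1.18 and passed. The difference between the changes in ED and ES at 4 h was 0.52, with a 95% interval from 0.08 to 0.96 and an adjusted p of 0.255, so the changes of Mdm2 in the 2 cell types were not shown to differ.

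At 15 min Mdm2 was called in neither cell type. It was 4.32, 4.19 and 4.20 in ESRE, with a difference of -0.18 (adjusted p = 0.842). In EDRE the 1 usable array read 3.84, a difference of 0.53 (adjusted p = 0.109), and the outlier spots of the other arrays read 4.38 and 3.97. With outlier spots kept, the difference was 0.75 and the adjusted p 0.0241. In unirradiated cells Mdm2 was lower in ED by 2.14-fold (log2 difference -1.10, standard error 0.14, adjusted p = 2.56e-05), and by -0.45 (adjusted p = 0.0729) with median scaling, which ends the call.

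Ccng1, the cyclin G1 that brings PP2A to Mdm2, was called in EDRL alone. It measured 4.17, 4.05 and 3.86 in ED and 5.91, 5.50 and 5.51 in EDRL. All 3 EDRL arrays lay above the other 15, and the rise was 1.61 (standard error 0.25, 3.06-fold, adjusted p = 0.00363). In ES it was 4.20, 4.26 and 4.21, and in ESRL it was 3.98, 5.16 and 4.43. The ESRL arrays spread over more than 1 unit on both sides of ES, and the difference of 0.30 had an adjusted p of 0.519. At 15 min the differences were -0.30 in ES (adjusted p = 0.857) and 0.28 in ED (adjusted p = 0.695), the latter on 1 array and -0.11 with outlier spots kept. The change at 4 h was larger in ED by 1.31, with a 95% interval from 0.53 to 2.10 and an adjusted p of 0.113.

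Ppm1d, the phosphatase Wip1, was called in none of the 7 comparisons. Its spots were usable on all 18 arrays and measured 0.46, 0.95 and 0.79 in ES and 0.03, -0.10 and -0.24 in ED. The difference of -0.84 between ED and ES (standard error 0.32) had an adjusted p of 0.0409, under the limit on size. In EDRE it measured 0.04, 1.63 and 0.61, the widest spread of any group, and both dim arrays gave the higher values. The difference of 0.86 had an adjusted p of 0.0996. With median scaling it was 1.01 and passed (adjusted p = 0.0248), and with outlier spots kept and EDRE replicates 2 and 3 left out it was 0.14. At 4 h the differences were 0.11 in ES (adjusted p = 0.879) and 0.29 in ED (adjusted p = 0.760), with 95% intervals from -0.58 to 0.80 and from -0.39 to 0.98.

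Among the arrest genes, Cdkn1a, the CDK inhibitor p21, was not called after IR in either cell type by either probe. Its brighter probe measured -2.0, -1.78 and -2.13 in ES, -2.89, -2.15 and -2.21 in ESRE, and -2.77, -2.11 and -3.20 in ESRL. No irradiated ES array lay above the highest ES array, and the difference was -0.45 at 15 min (adjusted p = 0.755) and -0.73 at 4 h (adjusted p = 0.150). The 95% interval at 4 h lay below 0, from -1.37 to -0.08, and with median scaling the difference was -0.42 (adjusted p = 0.316). Without ESRL replicate 2, the difference was -1.02 with an adjusted p of 0.0267.

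In ED cells the brighter probe of Cdkn1a measured -0.76, -1.26 and -1.49, and in EDRL it measured -0.60, -0.82 and -0.37. The groups overlapped, and the difference of 0.57 had a 95% interval from -0.06 to 1.21 (adjusted p = 0.428). In EDRE the usable array read -1.40 and the 2 outlier spots -0.03 and -0.59, so the difference was -0.23 without the outlier spots and 0.50 with them (adjusted p = 0.797 and 0.318). The other probe of Cdkn1a, designed to another transcript, gave -0.52 and -0.82 in ES cells at 15 min and 4 h, and 0.07 and 0.69 in ED cells, with adjusted p between 0.106 and 0.947, and its EDRL and ED arrays did not overlap. The change at 4 h was larger in ED than in ES by 1.30 (95% interval 0.38 to 2.21, adjusted p = 0.170) for the brighter probe and by 1.51 (0.60 to 2.42, adjusted p = 0.116) for the other.

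Before IR, all 3 ED arrays of Cdkn1a lay above all 3 ES arrays. On the brighter probe the difference was 0.80 (standard error 0.30, adjusted p = 0.0383), under the limit on size. With median scaling the brighter probe gave 1.44 and passed (adjusted p = 3.85e-04). The other probe gave 0.58 with the main scaling (adjusted p = 0.123).

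Btg2, an antiproliferative gene of the BTG/TOB family, had the largest interaction value of the 10 genes at both times. It measured -6.56, -5.70 and -5.71 in ED, -4.84, -4.31 and -3.22 in EDRE, and -3.96, -3.96 and -3.50 in EDRL. Every irradiated ED array lay above every ED array, and EDRE replicate 2 was not well above background. The lowest values well above background on EDRE replicates 2 and 3 were -4.95 and -5.52, above every ED value of Btg2. Before scaling, the signal of Btg2 was 44.08 on EDRE replicate 2 and 45.32, 72.71 and 66.16 in ED. How much of the rise in EDRE comes from this floor was not tested. The rises were 1.87 in EDRE (standard error 0.44, 3.65-fold, adjusted p = 0.0267) and 2.18 in EDRL (standard error 0.44, 4.54-fold, adjusted p = 0.0144). In ES it measured -4.64, -4.12 and -3.70, and its differences there were 0.20 at 15 min (adjusted p = 0.991) and -0.37 at 4 h (adjusted p = 0.665), with ESRL arrays at -5.17, -3.57 and -4.84. The interaction at 4 h was 2.55, with a 95% interval from 1.22 to 3.89 and an adjusted p of 0.0683. In unirradiated cells Btg2 fell by 1.84 in ED (3.57-fold lower, adjusted p = 0.00263). With the scaling used here, the ED arrays at 4 h after IR lay within the range of the ES arrays or above it. Median scaling moved the median of all probes up by 0.64 in ED against ES and by 0.15 in EDRL against ED. How far EDRL lay from ES thus depends on the scaling.

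Leaving out 1 array of ED or EDRE at a time, the EDRE call of Btg2 held in 1 of 6 fits, with differences between 1.42 and 2.22. With outlier spots kept and EDRE replicates 2 and 3 left out, the difference was 1.15 with an adjusted p of 0.388, where EDRE keeps 1 array and the spread comes from the other groups. The EDRL call held in 4 of 6 such fits and was lost without ED replicate 1 (1.90, adjusted p = 0.0812) or EDRL replicate 3 (2.03, adjusted p = 0.0713).

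Gadd45a, which inhibits the kinase of cyclin B and binds PCNA, could be tested without outlier spots in EDRL alone. It measured 3.91, 3.93 and 3.53 in ED and, on the usable arrays of EDRL, 3.94 and 3.72. The difference was 0.04 with a 95% interval from -0.65 to 0.73 (adjusted p = 0.976). With outlier spots kept, it measured 2.94, 2.42 and 2.69 in EDRE, below every other array, and the fit gave a fall by 1.10 (standard error 0.23, adjusted p = 0.0188). All 3 EDRE spots bear the outlier mark, as do 6 others, so this value comes from spots that the software set aside. With outlier spots kept, ES cells gave 0.12 at 15 min (adjusted p = 1) and -0.02 at 4 h (adjusted p = 0.977).

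Trp53inp1, the p53 cofactor that is itself a p53 target, was called in more comparisons than any other of the 10 genes. It measured 2.53, 2.81 and 2.66 in ES, 3.53, 3.42 and 3.44 in ESRE, and 3.41, 4.25 and 3.80 in ESRL. All 6 irradiated ES arrays lay above the ES arrays, with a rise of 1.15 in ESRL (standard error 0.23, 2.22-fold, adjusted p = 0.00802) and a difference of 0.80 in ESRE (adjusted p = 0.170). In ED it measured 0.93 and 0.81, with an outlier spot at 0.67, in EDRE 1.60, 2.47 and 2.05, and in EDRL 3.06, 3.12 and 3.09. The values in ED cells stepped up without overlap, by 1.17 in EDRE (2.25-fold, adjusted p = 0.0196) and 2.22 in EDRL (4.65-fold, adjusted p = 1.60e-04). Before IR it fell by 1.80 in ED against ES (standard error 0.25, 3.47-fold lower, adjusted p = 3.49e-05). With the scaling used here, ED cells 4 h after IR reached values between those of ES and ESRE. Median scaling moved the median of all probes up by 0.64 in ED against ES and by 0.15 in EDRL against ED. That raises EDRL arrays against arrays of ES cells, so this order depends on the scaling. The interaction was 0.37 at 15 min (adjusted p = 0.588) and 1.07 at 4 h (adjusted p = 0.159).

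Leaving out 1 array of the groups compared at a time, Trp53inp1 kept its call in 6 of 6 fits in EDRL and in ED against ES, in 5 of 6 in ESRL and in 2 of 6 in EDRE. The ESRL fit without replicate 2 gave 0.94 with an adjusted p of 0.0113, under the limit on size. In EDRE the call was lost without ED replicate 1 or 2 and without EDRE replicate 2 or 3.

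Zmat3, a zinc finger protein that binds RNA, was called in EDRL. It measured 3.68, 3.95 and 4.25 in ED and 5.20, 5.32 and 5.31 in EDRL, a rise of 1.32 without overlap (standard error 0.15, 2.49-fold, adjusted p = 3.69e-04). In ES it measured 4.05, 3.75 and 3.92, in ESRE 4.24, 4.20 and 4.17, and in ESRL 4.52, 4.63 and 4.57. The 3 groups of ES cells did not overlap either, and the difference of 0.67 in ESRL had an adjusted p of 0.0228 but was under the limit on size. In ESRE it was 0.30 (adjusted p = 0.631), and in EDRE, on 1 array, 0.46 (adjusted p = 0.204). Zmat3 differed by 0.05 between unirradiated ED and ES (95% interval -0.29 to 0.40), and its interaction at 4 h was 0.65 (0.16 to 1.14, adjusted p = 0.196).

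The sestrins were not called in any comparison. Sesn2 was dim, between -6.43 and -4.31, with 3 of 18 arrays not well above background. It measured -4.93, -4.52 and -4.59 in ES and -6.43, -4.31 and -6.18 in ESRL, where 1 array lay above ES and 2 below, and the difference of -0.96 had an adjusted p of 0.177. In EDRL it measured -4.97, -5.15 and -4.69 against -5.21, -5.39 and -5.62 in ED, a difference of 0.47 without overlap (adjusted p = 0.704). Sesn1 lay between -0.60 and 1.12 on all 18 arrays, most of them outlier spots. With those kept, its differences after IR were -0.05 and -0.20 in ES cells and 0.23 and 0.34 in ED cells, and that of ED against ES was -0.58, with adjusted p between 0.160 and 1.

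**Figure D2:**
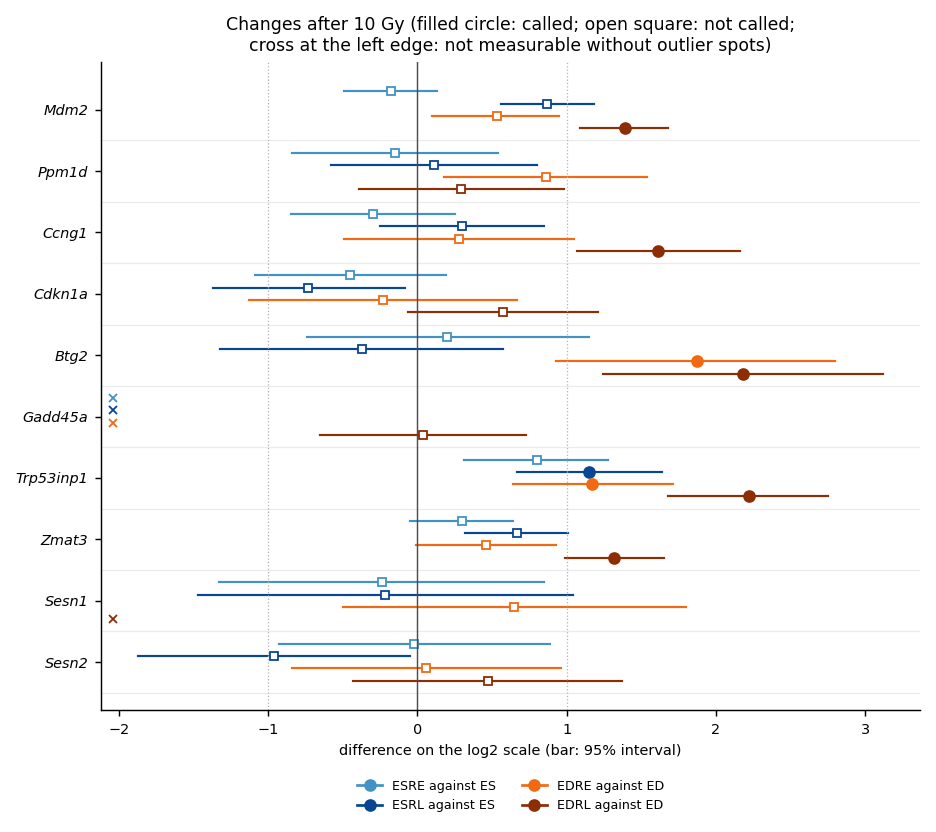
Differences from the unirradiated cells of the same type for the 10 genes, in log2 units, with 95% intervals from limma. Filled circles were called, open squares were not, crosses at the left edge stand for values that need outlier spots, and dotted lines mark the limit of 1. The 5 filled circles of EDRL against ED lie between 1.32 and 2.22, and the 1 of ESRL against ES at 1.15.

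Whether the response to IR differed between cell types was tested as an interaction, the change in ED minus the change in ES. At 4 h, limma called 0 of 8 genes (0.911% of all genes were more positive in ED and 0.246% more negative). All 8 values were above 0, between 0.18 for Ppm1d and 2.55 for Btg2, with a median of 1.18 against 0.15 over all probes. An unadjusted p under 0.05 was found for 7 of the 8 and for 15.2% of all probes tested. At 15 min, limma called 0 of 9 (1.24% and 0.850% of all genes), with values between 0.08 and 1.67, a median of 0.58 against 0.22, and an unadjusted p under 0.05 for 3 genes and for 18.7% of all probes. The 4 h count depended on 1 array: without ESRL replicate 2, 5 genes were called (Cdkn1a, Ccng1, Btg2, Trp53inp1 and Sesn2), with adjusted p between 0.00641 and 0.0348. All 5 read higher on that array than on both other ESRL arrays. Sesn2 was not well above background on ESRL replicate 1, which that fit keeps.

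**Figure D3:**
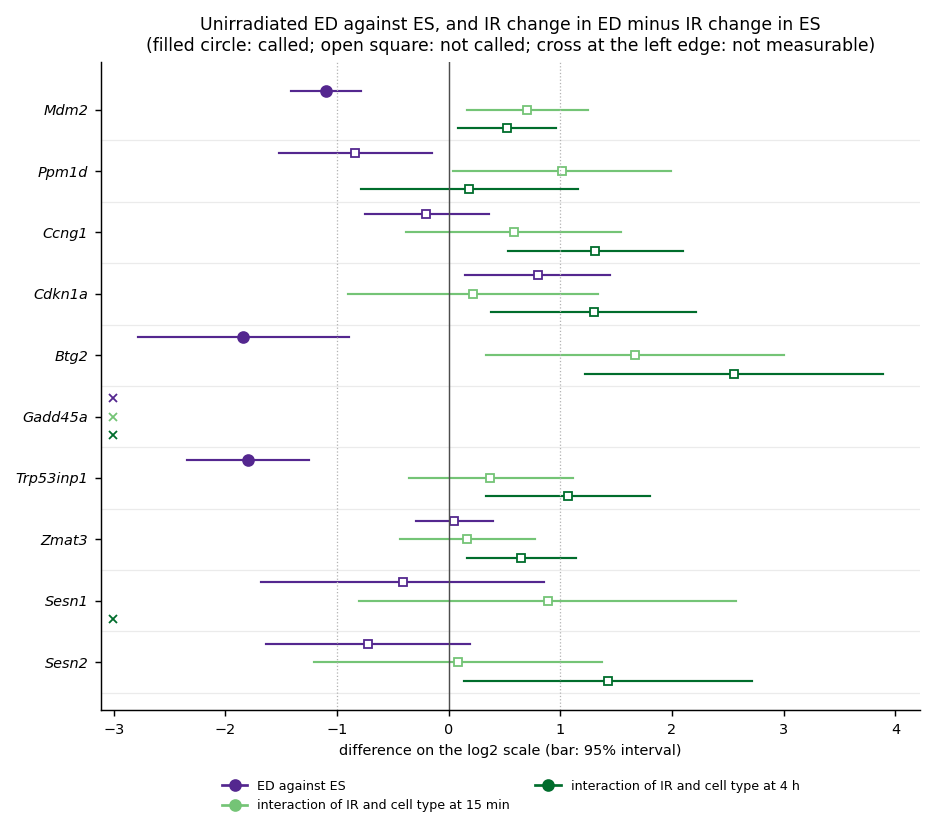
Differences between unirradiated ED and ES cells, and the change after IR in ED minus the change in ES at 15 min and 4 h, in log2 units with 95% intervals from limma. Filled circles were called and open squares were not; crosses at the left edge stand for values that need outlier spots. All 8 values at 4 h lie to the right of 0, and all are open.

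Treated arrays were never scanned at the same time as their own controls, and unirradiated ED and ES arrays did not share a scan time either. This leaves no value within a scan time to give, so scan time cannot be told apart from IR or from cell type in these comparisons. With scan time fitted as a random block, Trp53inp1 kept its call in EDRL and in ED against ES, and the calls of the other genes and of Trp53inp1 in EDRE and ESRL were lost, with differences between -2.0 and 2.80. ESRL replicate 1 was scanned alone on another scanner, and EDRE replicates 2 and 3 shared a scan of their own.

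Other genes of the pathway were taken as 5 lists and read beside the 10 genes. Of 13 p53 targets in apoptosis, 5 of the 10 tested were higher in EDRL (Fas, Perp, Eda2r, Pidd1 and Apaf1), 1 of 11 in ESRL (Fas) and 1 of 10 in EDRE (Bax), with medians of 1.13, 0.50 and 0.17. The death receptor gene Fas rose by 2.68 in EDRL on its brightest probe (adjusted p = 1.16e-05). The same probe gave 0.71 in ESRL (adjusted p = 0.0552), where another probe of Fas passed at 1.08, and its interaction at 4 h of 1.96 passed (adjusted p = 0.00835). Perp, a membrane protein of desmosomes, rose by 2.12 in EDRL and was at 0.50 in ESRL, with an interaction of 1.63 (adjusted p = 0.00343). Of 12 targets in repair and metabolism, all tested, 1 was higher in EDRL and 1 in ESRL, in both cases Rprm (reprimo), a G2 arrest gene, with medians of 0.10 and 0.17. Rprm rose by 3.55 in EDRL and by 1.06 in ESRL (adjusted p = 1.03e-06 and 0.0124), and its interaction at 4 h was 2.49 (adjusted p = 0.00273).

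Among p53 and its direct regulators, Trp73, a relative of p53, was higher at 4 h in both cell types, by 2.12 in ESRL and 1.80 in EDRL on the same probe (adjusted p = 4.95e-04 and 0.00171). That probe had a mean of -1.51 in ES and -7.81 in ED, where 1 of 3 arrays was well above background. The brightest probe of Trp73 gave 1.60 and 1.54 and was not called (adjusted p = 0.0629 and 0.148). Mdm4, the partner of Mdm2 and also counted among the paralogs, was lower in ESRL by -2.51 (adjusted p = 0.0389), where 1 of 3 arrays was well above background and the groups overlapped. Trp53 itself was called lower in ED against ES by 1 probe (-1.29, adjusted p = 0.0164), while its brightest probe gave 0.48 there (adjusted p = 0.694). The brightest probe was called in none of the 7 comparisons, with differences between -0.75 and 0.61 in the 4 comparisons after IR, each on 1 to 3 usable arrays per group.

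Of the 15 paralogs of the 10 genes, 0 were higher after IR in any of the 4 comparisons and 1 lower (Mdm4 in ESRL), with medians between -0.34 and 0.12. In EDRL limma called 0 of the 15 paralogs, and 0 of the 14 brightest probes tested had an unadjusted p under 0.05. In ED against ES, 4 of the 13 paralogs tested were higher and 4 lower, where 14.9% and 26.7% of all genes were. Among them Btg1 and Ccng2 were higher by 1.38 and 1.01. The CDK inhibitors Cdkn1b and Cdkn1c differed by 3.1 and -8.49 on their brightest probes, each with 1 usable ES array that the fit takes to vary like the other groups. Of 11 cyclins and kinases that Cdkn1a binds or Gadd45a restrains, Ccne1 was higher in EDRE by 1.22 (adjusted p = 0.0205), and limma called 0 in each of ESRE, ESRL and EDRL, where 1, 2 and 2 had an unadjusted p under 0.05 on the brightest probe, against 9.45%, 25% and 13.9% of all probes. In ED against ES 3 of the 10 tested were higher and 2 lower, and the D-type cyclins Ccnd1 and Ccnd2 were higher by 3.29 and 3.98, and Ccnd3 and Ccne1 were lower by -1.91 and -3.27. Among genes with a promoter window, the p53 decamer was found for 3 of 10 apoptosis genes and 2 of 9 repair and metabolism genes. It was found for 2 of 11 regulators, 0 of 12 paralogs and 0 of 7 cyclins and kinases. By window the counts were 4 of 13, 2 of 11, 2 of 15, 0 of 16 and 0 of 8, against 8.36% of all windows. With so few windows, a count of 0 does not set a list apart from all windows.

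**Figure D4:**
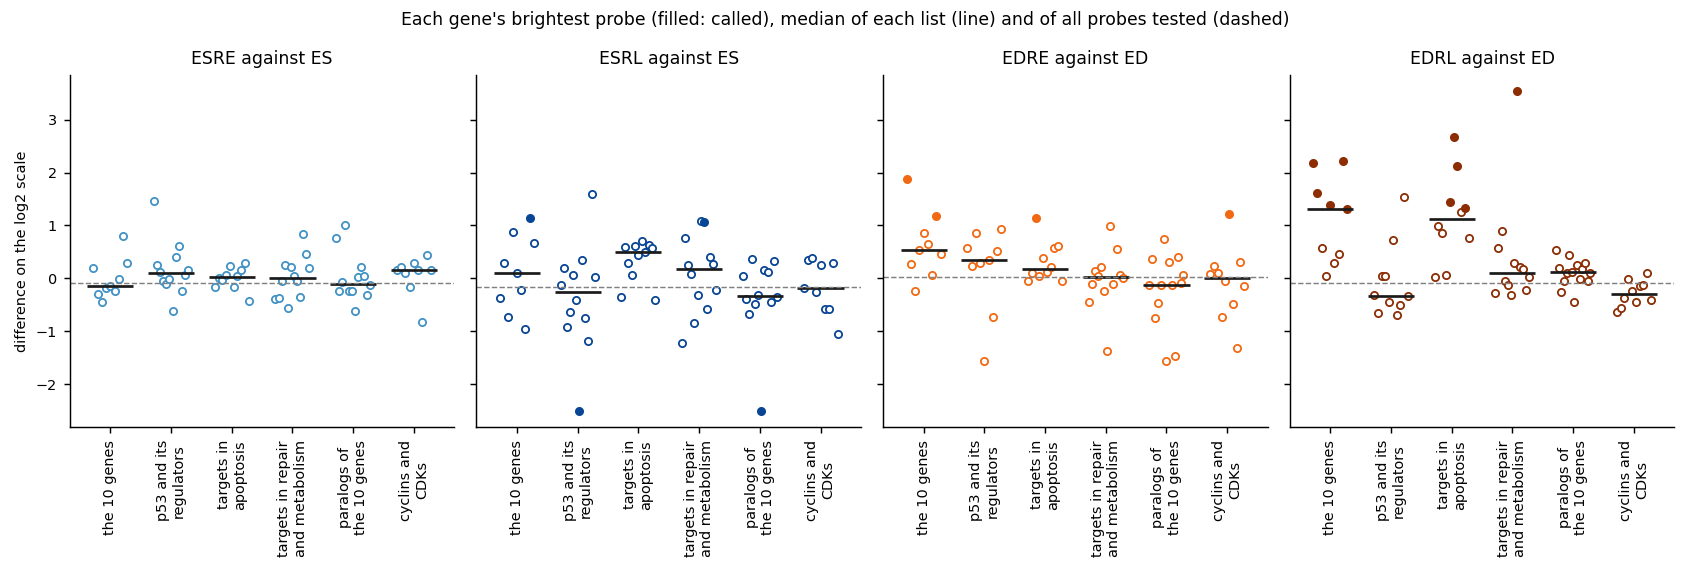
Difference from unirradiated cells of the same type for the brightest probe of each gene tested, in log2 units, for the 10 genes and 5 lists of the pathway, in 1 panel per comparison. Filled points are probes that were called, lines are list medians and the dashed line is the median of all probes tested. In EDRL the medians of the 10 genes (1.32) and of the apoptosis targets (1.13) lie highest, and those of the other lists lie between -0.32 and 0.12.

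Genes with a like pattern were sought by the Pearson correlation with the mean of the 10 genes. Each cell type was first centered on its own mean over 9 arrays. Outlier spots were left out of the mean, so 6 of the 10 genes are missing from it on EDRE replicates 2 and 3. The candidates were 3654 probes of other genes named by RefSeq that were well above background and usable, with no outlier mark, on all 18 arrays. The 5 closest were Ubl3 (0.910), Cyth1 (0.891), Mpp7 (0.879), Ankrd6 (0.877) and Nrg1 (0.873), where the median candidate had 0.210. The 18 arrays share their groups and scaling, so this is a description. The 5 were picked for this pattern, so their differences, between 0.52 and 1.57 in EDRL and between -0.14 and 0.06 in ESRL, are likewise a description.

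**Figure D5:**
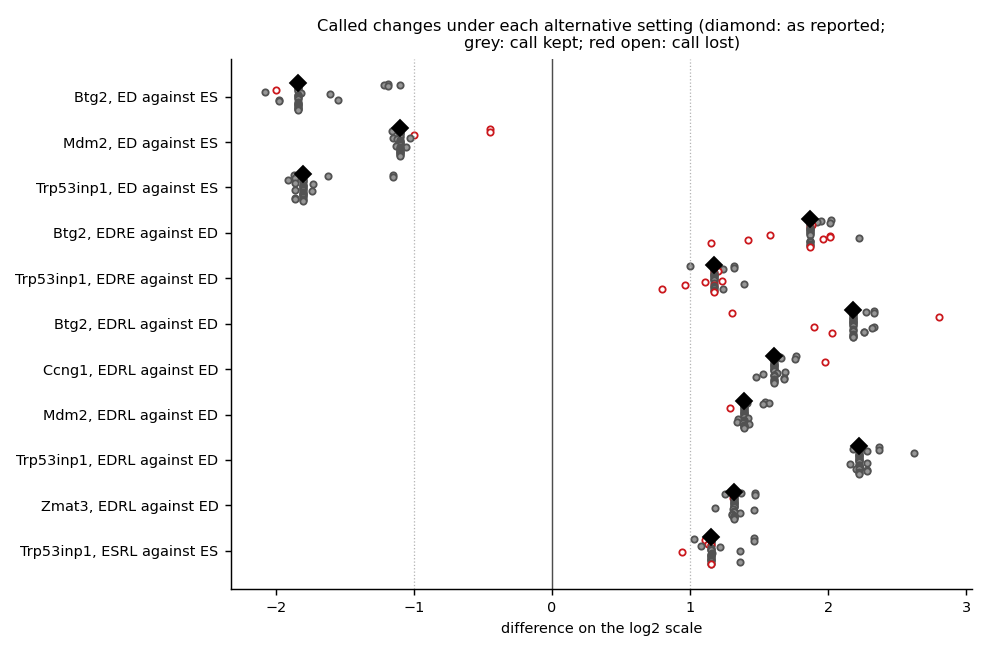
Each of the 11 called differences, in log2 units, as reported (diamond) and under each alternative setting (points); grey points kept the call, red open points lost it, and the dotted lines mark the limit of 1. No point crosses 0. The calls of Btg2 and Trp53inp1 in EDRE hold the most red points, with values down to 1.15 and 0.80.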

How the data were processed

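Deposited scanner files of 18 one-color arrays (6 groups of 3) were used. Per the file headers, the authors' scanner software (Agilent Feature Extraction 10.7.3.1, or 9.1 in the submitters' processing notes) gave a background-subtracted intensity per spot and marks (another unit, 0 or 1) for spots well above background and outliers. A deposited matrix holds the authors' own log2 values of 30133 probes, centered per array by a rule not given in the sources used here. The constant taken off each array, minus the log2 median signal of that array, was between -0.062 and -0.045. The matrix served as an alternative, which is thus nearly the same as median scaling. Intensities were divided by the 75th percentile of the array and taken to log2, control and outlier spots were left out, and spots of 1 probe were averaged. A model of group means over all 18 arrays was fitted with limma 3.58.1 (R 4.3.3), with empirical Bayes variances and Benjamini-Hochberg adjustment over all probes tested. The script was tested on simulated data. For a gene with several probes, the brightest gave the values and any probe the call. The 10 genes, the pathway lists and the 5 genes of like pattern were named by fixed rules, and genes and lists were chosen with earlier results of these data known. Arrays of 1 scan time were taken as a slide, which is an inference. The number of arrays limits the precision. Besides leaving out each of the 18 arrays, 13 other settings were tried, and 2 more were added after seeing the data. RefSeq symbols matched 22216 of 37246 probes, and promoter and gene coordinates are those of RefSeq on GRCm38.p6, not of the array design.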

Additional observations from a re-analysis of the deposited data

How the results depend on the processing

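All 11 calls kept their direction under every alternative. The calls in EDRL held least firmly for Btg2, which at normexp background correction gave 1.30 (adjusted p = 0.264). Counts of called genes moved by over 1.5 times as follows, with the cause not tested. In ESRL, where 1 gene was called, 2 were called with median scaling and with the authors' matrix, which is nearly the same scaling, and 3 with no fold limit. The count was 0 with normexp, with the slide as a random block, with only the groups compared, and by the methods' t-test after adjustment. In EDRE, where 2 were called, 1 was called when probes had to be detected in all groups, and 0 with the slide block, with only the groups compared, by the adjusted t-test, and with outlier spots kept and EDRE replicates 2 and 3 left out. In EDRL, 1 of 5 was called with the slide block. In ED against ES, where 3 were called, 1 was called with the slide block and 5 with no fold limit. For the interaction at 4 h, where 0 were called, 1 (Btg2) was called with the authors' matrix and with only the groups compared, and 2 (Btg2 and Trp53inp1) with outlier spots kept and EDRE replicates 2 and 3 left out. For the interaction at 15 min, 1 (Gadd45a, lower) was called with outlier spots kept and ESRL replicate 1 left out. These 2 outlier-spot settings were chosen after seeing the data.

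Leaving out each array in turn gave 0 to 0 genes in ESRE, 1 to 2 in ESRL, 0 to 3 in EDRE, 4 to 5 in EDRL, 3 to 3 in ED against ES, 0 to 2 for the interaction at 15 min and 0 to 5 at 4 h. Without ESRL replicate 2, the 2 genes called in ESRL were Cdkn1a (-1.02) and Sesn2 (-1.62), both lower. Sesn2 then rested in part on ESRL replicate 1, where its value of -6.43 was not well above background. Without EDRE replicate 1, Ppm1d was called in EDRE (1.22) and with Btg2 in the interaction at 15 min (1.37 and 2.02). Fitting the replicate number as a block gave 1 gene for the interaction at 4 h (Btg2, adjusted p = 0.0407) and left the counts of the other 6 comparisons as they were. Deviations of same-numbered samples correlated between -0.43 and 0.30, over 0.1 in 3 of 15 pairs, so the numbers were not taken to pair the samples. The methods' t-test without adjustment gave 0, 1, 2, 5 and 3 genes in ESRE, ESRL, EDRE, EDRL and ED against ES. Of 1971 values of single genes under the alternatives, 1910 stayed on their side of the threshold, 28 passed it and 33 no longer did. Among values that were not called, 45 changed sign, for example Ccng1 in ED against ES (0.45 with median scaling) and Cdkn1a in EDRE (0.11). Median scaling moved the median of all probes by 0.25 in EDRE and 0.15 in EDRL.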
